A study of Drosophila melanogaster with 4 samples.

Results

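Long H3K9ac deserts are stretches of 40 kb or more on the large chromosome arms of Drosophila melanogaster in which neither ChIP library had a region of enriched histone H3 acetylated at lysine 9 (H3K9ac). They were chosen from the measured data. The enriched regions of both ChIP replicates, called clusters here, were merged into a union, and every gap of at least 40 kb between neighbouring union regions of 2L, 2R, 3L, 3R and X was kept, without the gaps at the arm ends. Of the 7813 gaps between 7818 union regions, 536 met this rule (6.86%). Their number, length and place therefore follow from the cluster lists and are given as a description, with no test.

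The study mapped H3K9ac by ChIP-seq in whole wild-type larvae of the Oregon-R strain (Oregon-R-modENCODE) at the third instar, the last larval stage before the pupa. It has 2 ChIP libraries and 2 input libraries of the same strain and stage, with no treatment and no second genotype. Lists of clusters were used for ChIP replicate 1 (6433 clusters on the 5 arms), ChIP replicate 2 (7533 clusters) and the replicate set, a list made from the same libraries (9967 clusters). Positions refer to FlyBase release 5. Read counts are not part of these lists and the depth behind a cluster is unknown. No separate values of the input libraries were used, and whether the scores or the cluster calls already draw on input reads is unknown. Whether separate collections of larvae gave the replicates is not stated in the labels, and the spread between them may be technical. Each cluster carries a score set by the authors, which by its tied values has the form of a log2 ratio with an unstated denominator.

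H3K9ac is laid down on nucleosomes at active promoters and the first part of transcribed genes, where it keeps chromatin accessible, and deacetylases remove it. In flies, long stretches without active marks hold genes that are silent in most tissues, gene-poor sequence, domains kept silent by Polycomb proteins, and, near the centromeres, heterochromatin rich in repeats. In whole larvae, a mark present in few cells and a weak mark present in many cannot be told apart, and either can fall below the calling limit. A desert is thus a stretch without a listed cluster, which is not the same as a stretch without acetylation. How much of each desert can be mapped by short reads is not known here.

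Deserts made up a large part of the arms. The 536 deserts summed to 46.8 Mb, which was 39.3% of the 119.03 Mb of the 5 arms and 49.9% of all sequence in gaps, although they were 6.86% of the gaps by number. The other 7277 gaps, all under 40 kb, summed to 46.9 Mb with a median of 3.28 kb. The median desert was 67.5 kb long, 25% of them were shorter than 49.97 kb and 25% longer than 103.7 kb, and the mean was 87.3 kb. Deserts of 40 to 60 kb were the most numerous class, with 226 members and 11.01 Mb. A further 160 measured 60 to 100 kb (12.4 Mb), 126 measured 100 to 200 kb (16.98 Mb) and 24 measured 200 kb or more (6.37 Mb). The 150 deserts of 100 kb or more held 49.9% of the desert sequence.

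Each replicate alone gave more gaps of 40 kb or more than the union, because fewer clusters divide the arms. Replicate 1 alone had 637 gaps of 40 kb or more over 56.2 Mb, and replicate 2 alone had 567 over 49.99 Mb, a mean of 602 ± 49.5 gaps and 53.1 ± 4.38 Mb (SD, n = 2). The medians were 67.8 kb and 67.98 kb, so the typical length of a desert differed little between the libraries.

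**Figure D1:**
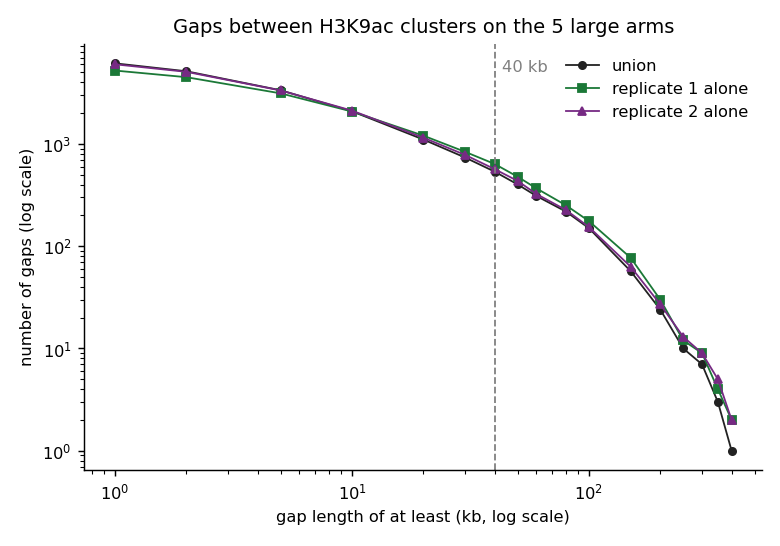
Number of gaps (log scale) of at least a given length in kb (log scale) between clusters of the 5 large arms, for the union and for each replicate alone. At the dashed line at 40 kb the curves stand at 536, 637 and 567 gaps for the union, replicate 1 and replicate 2, and they keep nearly the same shape up to the longest gaps.

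The lengths ran on without a break across the limit of 40 kb. The 3 shortest deserts were 40.008 kb on 2R (2348729 to 2388736), 40.08 kb on 2R (2769907 to 2809988) and 40.09 kb on 3R (4345770 to 4385855). Just under the limit were gaps of 39.995 kb on X (19418116 to 19458110), 39.99 kb on 3R (27289591 to 27329580) and 39.94 kb on 2L (22919487 to 22959425). With a limit of 30 kb there were 737 gaps, and with a limit of 50 kb there were 402.

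The arms differed in how much of them was desert. X had the highest share, 48.1% of its length in 112 deserts, followed by 2L with 42.2% in 102, 3L with 38.1% in 113, 3R with 36.6% in 118 and 2R with 31.8% in 91. The number of deserts per Mb varied less, between 4.23 on 3R and 4.99 on X, and the arms differed more in the lengths of their deserts. The median desert was 81.3 kb on X, 76.2 kb on 2L, 70.5 kb on 3R, 60.9 kb on 3L and 53.9 kb on 2R.

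With the gaps of each replicate alone, the share on X was 55.6% in replicate 1 and 51.2% in replicate 2 (53.4% ± 3.11, SD, n = 2). On 2L the shares were 50.8% and 45.1%, on 3L 45.5% and 41.8%, on 3R 44.8% and 38.3%, and on 2R 39.4% and 33.9%. X was highest and 2R lowest in each library, and the 2 values of X did not overlap those of any other arm. The values of 2R and 3R overlapped between the libraries, with 2R below 3R within each. The labels name no sex of the larvae.

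Deserts lay most densely at the centromere ends of the arm sequences. In the 2 Mb at the centromere end of each arm sequence, 63.0% was desert. The share was 38.6% in the arm middles and 22.9% in the 2 Mb at the telomere end. These values were 65.8%, 46.8% and 32.4% with the gaps of replicate 1 alone, and 65.5%, 41.4% and 24.3% with those of replicate 2 alone, in the same order. The centromere sides are 8.40% of the 5 arms and held 13.5% of the desert sequence and 8 of the 24 deserts of 200 kb or more. The arm middles held the other 16, and the telomere sides had 0 of them.

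The arms were not alike in this. The desert share of the centromere side was 82.6% on 3L, 82.2% on X, 63.9% on 2L and 60.6% on 2R. On 3R it was 25.5%, below the 38.3% of that arm's own middle, so the pattern held in 4 of the 5 arms. How close each arm sequence comes to its centromere is not known here, which limits this comparison between arms. On 3R the centromere side also lay below the middle in each replicate alone, with 30.5% against 46.6% in replicate 1 and 25.8% against 40.2% in replicate 2. At the telomere sides the share was 10.9% on 3L and 21.4% to 27.8% on the other arms, in every arm below that of its middle.

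**Figure D2:**
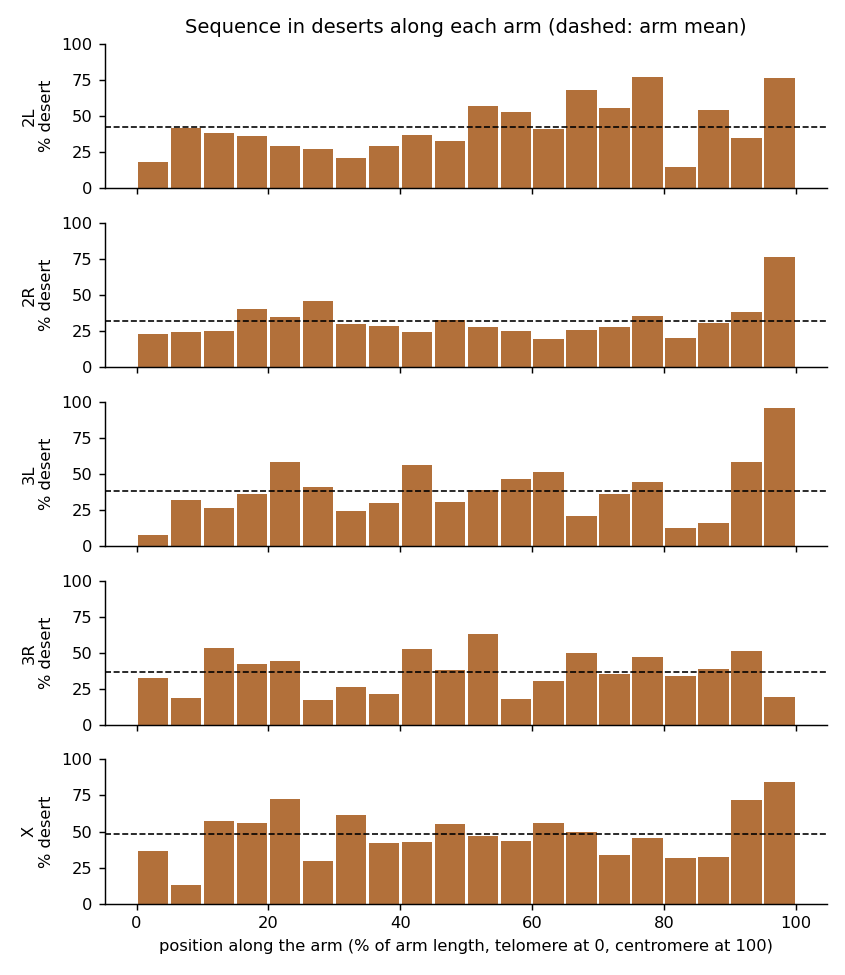
Share of sequence in deserts (%) in 20 steps of each arm, with the telomere end at 0 and the centromere end at 100% of arm length and the arm's mean as a dashed line. The last steps of 2L, 2R, 3L and X stand far above their means, up to 95.9% on 3L, while the last step of 3R stands below its mean.

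At a scale of 1 Mb no part of the arms was free of deserts. Over 117 full windows of 1 Mb, the median desert share was 36.95% and the lowest was 4.79%, on 3L from 1 to 1000000. The next lowest was 4.996% on 3L from 21000001 to 22000000. At the other end, 31 windows were more than 50% desert and 3 were more than 75%. These 3 were on 3L from 23000001 to 24000000 with 90.9%, on 2L from 17000001 to 18000000 with 83.1%, and on 2R from 1 to 1000000 with 78.3%. The first and the last of them lie within 2 Mb of the centromere end, and the one on 2L lies in the arm middle.

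The longest deserts were mostly alike in both libraries. The longest, 478.2 kb on 2L from 15771745 to 16249980, was a gap of 478.2 kb in replicate 1 and 478.6 kb in replicate 2. Its left border scored low in both replicates. This region of 1826 bp scored 0.29 in replicate 1 and 0.30 in replicate 2, and the right border of 2349 bp scored 0.71 and 0.37. This desert lay at 69.6% of the arm length from the telomere end, well within the arm.

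The second was 367.1 kb on X, from 20530777 to 20897902, with gaps of 367.1 kb and 367.5 kb in replicates 1 and 2. The third was 363.6 kb on 3L from 13508044 to 13871608. Its left border of 3289 bp scored 1.32 in replicate 1 and 1.33 in replicate 2, and its right border of 1724 bp scored 0.40 and 0.36. This desert thus ended in a strong cluster on one side and a weak one on the other, in both libraries alike.

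The fourth, 343.8 kb on X from 21501956 to 21845743, lay between a border of 2856 bp scoring 1.15 and 0.98 and one of 2396 bp scoring 1.24 and 0.98, replicate 1 first. The sixth, 334.7 kb from 23814616 to 24149301, was the longest on 3R, with 335.3 kb in replicate 1 and 334.8 kb in replicate 2. The tenth, 258.5 kb from 718628 to 977173, was the longest on 2R. Both its borders scored high, at 1.64 and 1.01 on the left and 1.93 and 1.56 on the right, again in replicates 1 and 2.

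A few of the longest deserts ended at a cluster of 1 library. The fifth, 334.9 kb on 2L from 17040918 to 17375775, had a left border of 1359 bp found in replicate 2 alone (score 0.69), so the same gap in replicate 1 ran on to 465.1 kb. The eighth, 288.2 kb on 3L from 23732685 to 24020906, ended at a cluster of 2801 bp found in replicate 1 alone (score 0.88), and the gap in replicate 2 reached 491.8 kb. That gap was longer than any in the union. The ninth, 273.1 kb on 2L from 11528904 to 11802027, ended at a cluster of 1501 bp of replicate 2 alone (score 0.48), yet was only 276.0 kb in replicate 1. The seventh, 303.5 kb on 3L from 24226022 to 24529545, had both borders in both replicates.

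The regions at the borders of deserts had median scores close to those of regions elsewhere. The 536 deserts had 992 border regions, of which 696 (70.2%) were found in both replicates, against 69.0% of all union regions. Another 105 were in replicate 1 only and 191 in replicate 2 only. Median scores at the borders were 0.76 (replicate 1) and 0.68 (replicate 2), and those of the 6826 other regions were 0.78 and 0.68. Among regions found in both replicates, the mean score was over 1 in 39.2% of those at borders and 40.7% of the others. The share found in both replicates was thus near the background.

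Border regions were slightly shorter. Their median length was 2384 bp, against 2492.5 bp in the other regions, and 11.3% of them reached 5 kb, against 14.5% of the others. Among regions found in both replicates, the medians were 2894.5 bp at borders and 3237 bp elsewhere. Scores at the borders showed no steady order with the length of the desert. Over borders in both replicates, the medians of replicates 1 and 2 were 0.84 and 0.77 for deserts of 40 to 60 kb, 0.90 and 0.83 for those of 60 to 100 kb, 0.88 and 0.83 for those of 100 to 200 kb, and 0.89 and 0.72 for those of 200 kb or more.

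**Figure D3:**
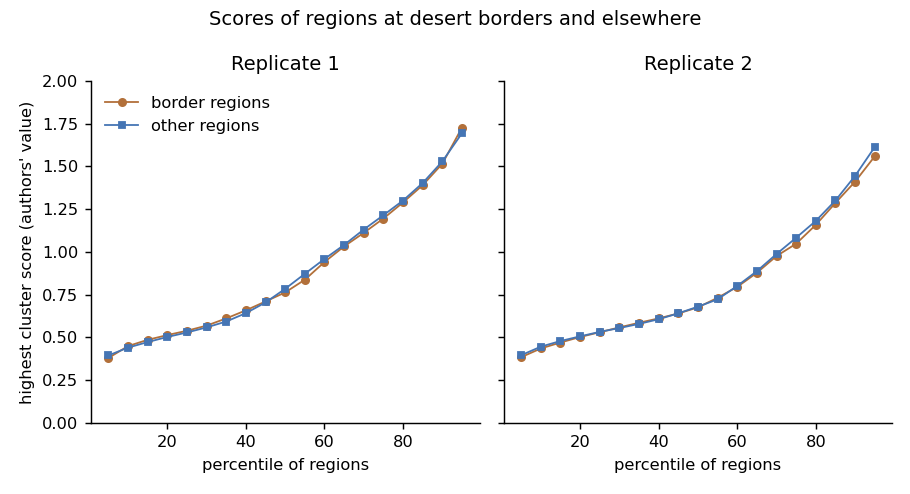
Score of the highest cluster in a region, by percentile over regions, for regions at desert borders and for the other regions, in each replicate. Within a replicate, the curve of the border regions and that of the other regions lie close together, with medians of 0.76 at borders and 0.78 elsewhere in replicate 1 and 0.68 for both in replicate 2.

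The 5 border regions with the highest mean scores lay on 5 different arms. They lay at 12455932 to 12459663 of 2R (2.43 in replicate 1 and 2.13 in replicate 2), at 9469836 to 9476366 of 3R (2.25 and 1.89), at 22063121 to 22071228 of 3L (1.98 and 2.11), at 10199685 to 10207855 of 2L (1.73 and 2.35) and at 9445306 to 9451468 of X (2.15 and 1.88). Each of them bordered 1 desert, of 48.8, 178.7, 57.3, 47.8 and 50.4 kb in the same order. The lowest borders found in both replicates lay at 21808045 to 21809952 of 3R (0.24 and 0.22), at 17048139 to 17049869 of 3L (0.27 and 0.19) and at 13398452 to 13400294 of 2L (0.28 and 0.25). They were 1731 to 1908 bp long, and the one on 3L lay beside a desert of 183.8 kb.

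Borders at the centromere sides scored higher in replicate 1 than in replicate 2. Over the 72 border regions of the centromere sides found in both replicates, the medians were 1.27 for replicate 1 and 0.95 for replicate 2, and 59 of them (81.9%) were higher in replicate 1. In the arm middles the 579 such regions had medians of 0.83 and 0.79, with 61.3% higher in replicate 1, and at the telomere sides the 45 had medians of 0.84 in each, with 42.2% higher in replicate 1. Over all regions of the 5 arms found in both replicates, the medians were 0.89 for replicate 1 and 0.83 for replicate 2. Whether regions of the centromere sides that border no desert differed in the same way was not tested. The scores stand in separate lists, so these are differences between scores and not between amounts of acetylation.

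The 2 libraries mostly placed the edges of deserts within 500 bp of each other. Of the 1072 desert edges, 748 lay on a region found in both replicates. There the edge of replicate 1 and that of replicate 2 were a median of 93 bp apart, 87.8% were within 500 bp and 93.6% within 1000 bp. At the edges of gaps under 40 kb the median was 110 bp and 83.5% were within 500 bp. Replicate 1 reached farther into the desert at 478 edges and replicate 2 at 266, and at 4 edges they met. Clusters had a median length of 2558 bp in replicate 1 and 2323 bp in replicate 2. Whether the edges of shorter gaps show the same order was not tested. In all, 265 deserts (49.4%) had both borders in both replicates, 218 had 1 such border and 53 had none. Both sides were in both replicates for 53.5% of gaps under 10 kb, 44.6% at 10 to 20 kb and 39.9% at 20 to 40 kb. The share for deserts thus lay within the range of the shorter gaps. For 263 deserts (49.1%) the gap was longer by at most 2 kb in each replicate's own list. The rest extended by more in at least 1 library. The same share was not computed for gaps under 40 kb.

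Beyond the border, marked sequence was sparser around deserts than around shorter gaps. At 5 to 10 kb from the edge, away from the gap, clusters covered 23.3% of the sequence in replicate 1 and 23.8% in replicate 2 at deserts, against 30.4% and 32.4% at gaps under 40 kb. At 10 to 20 kb the shares were 20.5% and 21.3% at deserts, against 25.9% and 28.0%. From 40 kb outward the surroundings of deserts reached the mean of the arms. The shares at 40 to 60 kb were 17.7% and 18.5%, and clusters of replicates 1 and 2 covered 17.3% and 18.5% of the 5 arms. Around gaps under 40 kb the shares were still above that mean at 80 to 100 kb, with 19.5% and 21.3%. Places with many clusters also have more short gaps, so their edges weigh more in the shares of these gaps. Edges of neighbouring gaps share sequence, and the mean of the arms includes the deserts themselves.

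**Figure D4:**
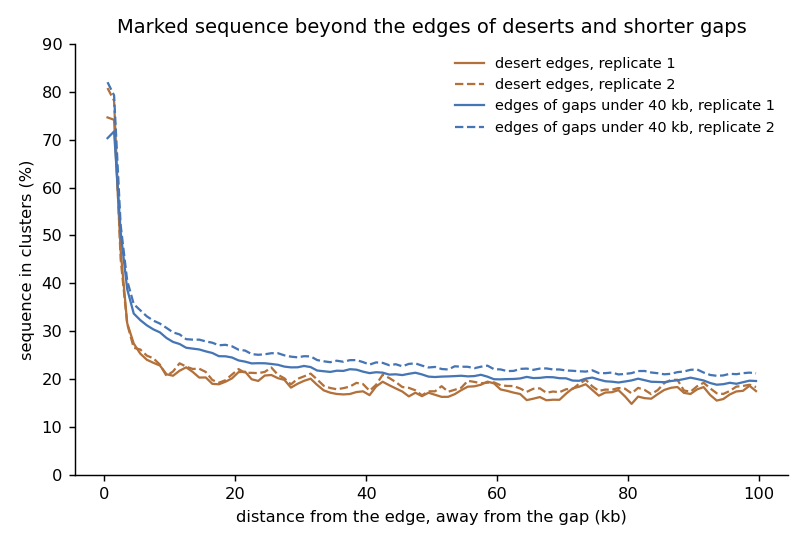
Share of sequence in clusters (%) by distance from the edge in kb, going away from the gap, for the 1072 edges of deserts and for the edges of gaps under 40 kb, in each replicate. In both replicates the lines of the deserts lie below those of the shorter gaps from about 3 kb outward, with 23.3% against 30.4% in replicate 1 at 5 to 10 kb.

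Some deserts followed each other with a single marked island between them. A further gap lay beyond the border region at 1069 desert edges. At 160 of these edges (14.97%) that gap was itself a desert, against 6.86% of all gaps. Edges are counted here, so a desert with a desert on each side counts at both. Both shares come from the lists that chose the deserts. The median far-side gap was 6.26 kb. These deserts formed 64 runs of 2 to 4, which took in 144 of the 536 deserts, with 53 runs of 2, 6 of 3 and 5 of 4. The other 392 stood alone.

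The 80 islands between neighbouring deserts were small. Their median length was 2222.5 bp, only 4 reached 5 kb, and 38.75% were under 2 kb, against 30.7% of the regions that border no desert. In both replicates 52 of them (65.0%) were found, near the 69.0% of all union regions. Another 11 were in replicate 1 only and 17 in replicate 2 only. The islands scored a median of 0.69 (replicate 1) and 0.66 (replicate 2), against 0.78 and 0.68 for the regions that border no desert.

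The longest runs lay near the centromere end of 3L. One spanned 796.9 kb from 23732685 to 24529545, with 3 deserts and 2 islands that together made 4.76 kb, or 0.597% of the span. Its islands were the 2801 bp cluster of replicate 1 alone from 24020907 to 24023707, and a region of 1960 bp from 24224062 to 24226021 that scored 0.46 in replicate 1 and 0.40 in replicate 2. The next run, from 23144437 to 23707337, spanned 562.9 kb with 4 deserts and 3 islands of 7.56 kb in all. Only its island of 4398 bp, from 23329501 to 23333898, was found in both replicates, with scores of 1.20 and 0.83. The other islands of that run, of 1751 and 1408 bp, were in replicate 1 only, with scores of 0.35 and 0.36. The third run was on X from 20396850 to 20897902, with 2 deserts over 501.1 kb and 1 island of 3278 bp scoring 0.91 and 0.72.

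Each library can be set against gaps drawn from the other list alone, which keeps the rule and the readout in different libraries. In the 637 gaps of 40 kb or more of replicate 1, replicate 2 had 9.24 clusters per Mb lying wholly inside, against 27.5 per Mb in the 5787 shorter gaps. In the 567 long gaps of replicate 2, replicate 1 had 3.32 per Mb, against 12.5 per Mb in the 6953 shorter ones. Clusters of the other library covered 1.83% of the long gaps of replicate 1 and 0.826% of those of replicate 2. Of the shorter gaps they covered 8.42% and 5.73%. These covered shares also take in parts of clusters that reach in over a gap edge, and shorter gaps have more edge per length. No cluster of the other library lay inside 358 of the 637 and 433 of the 567 long gaps (56.2% and 76.4%), against 85.1% and 92.7% of the shorter gaps, most of which have little room for one. This is 1 library against 1, with no test.

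The density of such clusters fell with the length of the gap in the longer classes. In gaps of replicate 1 it was 26.2 per Mb at 20 to 40 kb, 14.2 at 40 to 60 kb, 12.3 at 60 to 100 kb, 6.53 at 100 to 200 kb and 2.23 at 200 kb or more. In gaps of replicate 2 the values of replicate 1 clusters were 10.1, 5.44, 4.62, 1.68 and 1.46 per Mb over the same classes. Clusters that broke up long gaps scored about as those inside shorter gaps did. Those of replicate 2 inside long gaps of replicate 1 scored a median of 0.54 and at most 0.93, over a median of 1564 bp, against a median of 0.53 and at most 1.03 over 1589 bp in the shorter gaps. Those of replicate 1 inside long gaps of replicate 2 scored a median of 0.48 and at most 0.88, over a median of 1619 bp, against 0.48 and at most 0.86 over 1621 bp.

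The longest gaps broken in this way show how much a single cluster can decide. In replicate 1 they were 465.1 kb on 2L from 16911248 to 17376322, with 1 replicate 2 cluster inside, 330.6 kb on X from 14143216 to 14473773, with 2, and 302.2 kb on 2L from 14689761 to 14991997, with 1. In replicate 2 they were 491.8 kb on 3L from 23732305 to 24224140, 373.7 kb on 3L from 23333772 to 23707443 and 268.7 kb on X from 7233022 to 7501727, each with 1 cluster of replicate 1 inside. The clusters that broke the last pair scored 0.36 and 0.50 over 1408 and 1733 bp.

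The replicate set listed clusters inside 268 of the 536 deserts (50.0%), against 21.9% of all gaps and 19.8% of those under 40 kb. The share was 46.4% in gaps of 10 to 20 kb and 53.1% in those of 20 to 40 kb, so it was not particular to deserts. The replicate set shares the libraries of the other lists, and a longer gap has more room. Among deserts, those with such a cluster had a median length of 66.2 kb, against 68.9 kb for those without. Per length, deserts held far fewer of them. The 579 replicate-set clusters wholly inside deserts came to 12.4 per Mb, against 45.9 per Mb for the 2152 in the shorter gaps. In gaps of 20 to 40 kb alone the density was 37.4 per Mb. With the gaps of replicate 2 alone there were 900 in the long gaps, or 18.0 per Mb, against 53.1 per Mb in the shorter ones. With those of replicate 1 alone there were 1466, or 26.1 per Mb, against 62.2 per Mb. The count thus moved by more than 1.5 times when either library was left out, and the density stayed lower in the long gaps. The 579 covered 1.68% of the desert sequence, against 6.42% of the shorter gaps. In all, 21.2% of the 2731 replicate-set clusters without an overlap to either replicate lay in deserts.

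The inside clusters were rarer in longer deserts. Their density was 23.1 per Mb in deserts of 40 to 60 kb, 15.9 at 60 to 100 kb, 6.60 at 100 to 200 kb and 2.51 at 200 kb or more. They were about as weak and short as those in shorter gaps, scoring a median of 0.36 over 1254 bp, against 0.35 over 1263.5 bp. Of the 579, 331 (57.2%) were shorter than 1301 bp, the shortest cluster in either replicate's list. In the shorter gaps this share was nearly the same, with 1172 clusters (54.5%). The 7236 replicate-set clusters that overlapped a replicate cluster scored a median of 0.56, over a median of 2907 bp.

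Inside deserts, replicate-set clusters gathered near the borders. Within 2 kb of a border there were 42.0 per Mb, at 5 to 10 kb 20.1, at 10 to 20 kb 15.3, at 20 to 40 kb 8.52 and at 40 to 100 kb 2.60. In the gaps under 40 kb the values were 58.1 within 2 kb, 33.1 at 5 to 10 kb and 23.0 at 10 to 20 kb. Distance was taken from the nearer end of the cluster, and some short gaps are too small to hold a cluster, which lowers their values near the border. In deserts, 47.2% of the inside clusters lay within 10 kb of a border, where 22.9% of the desert sequence lies. Deserts were thus emptier than shorter gaps in each distance class that both have, and their density was lowest far from the borders. Up to 20 kb each desert adds the same length to a class, as none is under 40 kb. Sequence at 40 kb and beyond comes only from longer deserts. Density was lower in these as a whole, with 6.60 per Mb at 100 to 200 kb against 23.1 at 40 to 60 kb. A fall with distance beyond 20 kb within deserts of the same length was not tested.

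**Figure D5:**
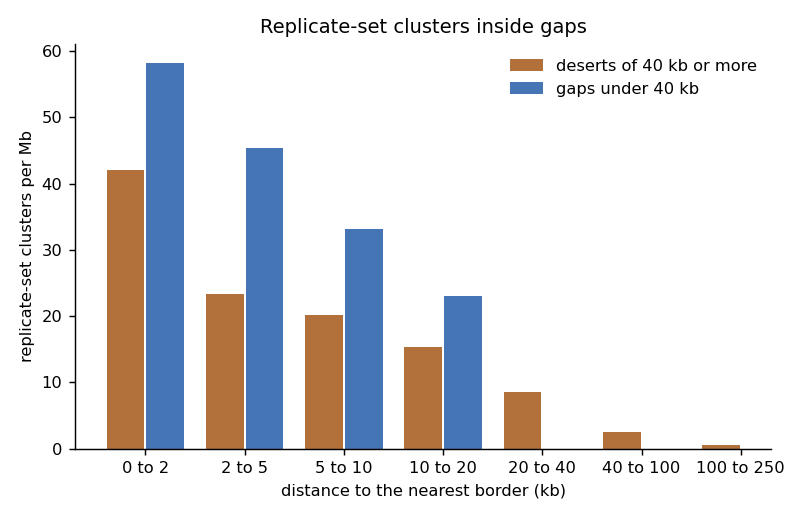
Replicate-set clusters per Mb inside gaps, by distance in kb from the nearest border, for deserts and for gaps under 40 kb. The bars of the deserts fall from 42.0 per Mb within 2 kb to 0.637 per Mb at 100 to 250 kb, and lie below those of the shorter gaps in each of the 4 classes that both have.

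Inside clusters were also unevenly spread along the arms. At the centromere sides 22.8% of the deserts held one, with 3.65 per Mb, against 52.8% and 13.5 per Mb in the arm middles and 59.4% and 18.5 per Mb at the telomere sides. Gaps under 40 kb had 23.7, 46.9 and 49.3 per Mb in the same order. Over the 5 arms, the median desert measured 78.3 kb at the centromere sides, against 67.9 kb in the middles and 59.8 kb at the telomere sides. Between the arms the values ranged from 10.2 per Mb on 2L to 14.4 per Mb on 2R.

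The deserts with the most replicate-set clusters were of ordinary length. One of 56.7 kb on 3L, from 11289665 to 11346348, held 9, of which the highest scored 0.54, and the longest stretch between them was 9.79 kb. One of 85.5 kb on 2L, from 18356024 to 18441523, held 8, but 60.97 kb of it had none. One of 65.4 kb on 3R, from 21348324 to 21413692, held 7. At the other end, 5 of the 7 deserts over 300 kb held 0, namely those on 2L from 15771745 and from 17040918, on X from 21501956, on 3R from 23814616 and on 3L from 24226022.

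A few inside clusters had high scores. The highest, 3.08, was shared to the last digit by a cluster on 2L from 11316638 to 11317638, in a desert of 55.3 kb, and one on X from 6324106 to 6325106, in a desert of 149.7 kb and 56.2 kb from its nearer border. Both were 1001 bp long, the shortest length in the replicate set, which 89 of its clusters had. The same score occurred once more, in a gap under 40 kb, and no other replicate-set cluster on the arms scored as high. Next came a 1001 bp cluster on 2R from 2248172 to 2249172 (1.41), one on 2L from 11315084 to 11316084 (0.85) and one of 1146 bp on 2R from 1307152 to 1308297 (0.75). By the rule for gaps, neither replicate can list a cluster at these places. Of the 579 inside clusters, 17 (2.94%) scored above 0.5, against 46 (2.14%) of those in gaps under 40 kb.

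Most deserts kept a long stretch between their borders and the replicate-set clusters inside them. A stretch of 40 kb or more was left in 431 of the 536 deserts, in 119 one of 100 kb or more, and in 17 one of 200 kb or more. Replicate-set clusters that reached in over a border, at 599 edges, were not taken off, so these counts are upper limits. The replicate set alone had 453 gaps of 40 kb or more over 39.5 Mb. Its clusters ended close to those of the replicates at the borders. At 1034 of the 1072 desert edges the border region overlapped a replicate-set cluster, which reached a median of 9 bp farther into the desert.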

How the data were processed

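H3K9ac ChIP-seq clusters of whole larvae were taken from 3 deposited lists. Per the submitters' processing notes the aligner was Bowtie 0.12.7, and positions follow FlyBase release 5, per the file headers. Not given in the sources used here are the caller, its threshold and how the replicate set was made. The score per cluster is the authors' deposited value. Its scale was read from ties: of 780 differences among the 40 most frequent scores, 700 (replicate 1), 768 (replicate 2) and 763 (replicate set) equalled the log2 of a whole-number ratio (denominator up to 5000, relative tolerance 1e-11), against at most 1 for natural log or log10.

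Overlapping or touching clusters were merged with Python 3.11.15 and numpy 2.4.6, and gaps were read as 1-based closed intervals. A region's score is that of its highest cluster in a replicate, and its mean score the mean of both replicates. "Inside" means wholly within a gap. Telomere and centromere sides are the 2 Mb at each arm end. The functions were tested on simulated data.

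The members, lists and measures were chosen with earlier results of these data known. The regions named are the 10 longest deserts, the longest of each arm, those with most or no replicate-set clusters, the longest runs, the highest and lowest borders, the highest inside clusters, the longest broken gaps and the gaps nearest 40 kb. The gene table at hand follows release 6, so no gene was assigned, and no sequence is shown. No other per-sample columns were present. Alternatives were each replicate alone, sequence covered in both, the replicate set, the 50% of clusters with the highest scores, clusters of 2 kb or more, and limits of 30, 50 and 100 kb.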

Additional observations from a re-analysis of the deposited data

How the results depend on the processing

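The number of deserts stayed within 1.5 times of 536 under each alternative (402 to 737) but the limit of 100 kb, which left 150. With 1 replicate left out it was 567 to 637, the desert length 49.99 to 56.2 Mb and the replicate-set clusters inside 900 to 1466. From 46.8 Mb, the length became 61.6 Mb with sequence covered in both replicates, 73.7 Mb with the 50% of clusters with the highest scores, 39.5 Mb with the replicate set, 61.3 Mb with clusters of 2 kb or more, and 53.7, 40.8 and 23.4 Mb at limits of 30, 50 and 100 kb. The 579 replicate-set clusters inside became 2113, 3935 and 2156 with the same both-replicate, highest-score and 2 kb lists, 128 at 100 kb, and 1178 when an overlap of 1 bp was enough. Lists with fewer clusters leave longer gaps, a lower limit keeps more of them and a looser overlap counts more clusters, each by construction. Border regions found in both replicates, 70.2%, were 73.3% with the highest scores, 73.1% at 100 kb and 74.7% with clusters of 2 kb or more. At limits of 30 and 50 kb they were 68.9% and 69.9%. The share over all regions was not computed with the highest-score and 2 kb lists. A rise particular to borders was therefore not tested there. The unknown depth limits what a missing cluster shows. No paired analysis was possible because the shared replicate numbers join each ChIP library to an input library, whose values were not analysed here, and the results come from no test.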

Other observations

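The 10 gaps at the arm ends, which the rule leaves out, summed to 206.6 kb. Of these, 2 reached 40 kb, with 68.3 kb at the start of 3L, its telomere end, and 48.8 kb at the end of 2L, its centromere end. At 38 of the 1072 desert edges the border region, though listed for a replicate, overlapped no cluster of the replicate set. Of the 2731 replicate-set clusters that overlap neither replicate, 8 scored above 1.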
